A study of Mus musculus with 8 samples.

Results

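Of the 9698 merged ATAC-seq peaks of WT bone marrow-derived macrophages (BMDMs), 1310 belonged to the peak set called after KLA and to the set called after RGFP966 + KLA, but not to the set called at Veh. These 1310 regions, called kept KLA peaks here, were taken from the record of peak sets that the deposited table gives for every merged peak. The sets were called by the irreproducible discovery rate (IDR), which keeps peaks that rank alike in a pair of libraries. The regions were thus chosen by the tags of all 6 WT libraries, and their differences from Veh and between the 2 KLA conditions are given as a description. Where calls across all merged peaks are counted below, they rest on the values that chose the regions and are no independent support. The Veh set held 4743 peaks, the KLA set 5092 and the RGFP966 + KLA set 7869. The merged peak score ran from 552.5 to 1000 in the kept KLA peaks, with a median of 838.5, and the lowest score of any merged peak was 540.

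KLA (Kdo2 lipid A) is the part of bacterial lipopolysaccharide that TLR4 recognises. TLR4 signaling releases NF-kB from its inhibitors and activates AP-1 factors through MAP kinases, and both bind enhancers that the macrophage factor PU.1 has opened together with AP-1 and C/EBP factors. Regions that are closed at rest and open after stimulation are known as signal-dependent enhancers. HDAC3 is the deacetylase bound by the corepressor NCoR, and RGFP966 is an inhibitor of HDAC3. ATAC-seq reads out how accessible DNA is to a transposase, and so tells open chromatin, not histone acetylation or transcription.

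The WT libraries came from BMDMs of C57BL/6 mice held at Veh, treated with KLA, or treated with RGFP966 and KLA, with 2 libraries per condition. The labels give a time of 6 h for each, and by the study's culture methods RGFP966 was added earlier than KLA, when the serum was lowered, so these cells met the inhibitor before the stimulus. All 6 WT libraries carry the same genotype, and no library with RGFP966 and without KLA was analysed here. A further pair of Veh libraries came from BMDMs with the genotype NCoR1 flox/flox (NCoR f/f), in which the floxed gene is present and which serve as controls for NCoR knockout (NKO) cells, where LysM-Cre deletes the gene in myeloid cells. For the RGFP966 libraries, the sample titles name RGFP966 while the treatment entry names only KLA. Whether the paired libraries stem from different animals or dishes is not given, so their spread may be technical. The WT libraries held between 116733 and 202523 tags in peaks, of 6247529 to 11005917 tags in all, and the NCoR f/f Veh libraries held 372367 and 509741, of 15702362 and 18689862. Of 10 macrophage marker genes, 5 had a merged WT peak and 1, Cd68, had one within 2 kb of its TSS, so the tissue label was hardly checked by this table. None of these markers had a kept KLA peak. Of the marker lists for T cells, neutrophils, B cells and fibroblasts, 1 kept KLA peak each was assigned to Cd2 (T cells) and Camp (neutrophils, the 1 gained after KLA), and 0 to those of B cells and fibroblasts; their part in any result was not tested.

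The sequences of 6 kept KLA peaks are shown first, 5 of them chosen for their contrast with Veh and the Ccr7 peak by name. They are the central 200 bp of 5 of the 6 peaks with the largest fitted change between KLA and Veh, among the 376 with a mean of at least 20 tags over the 4 KLA libraries, and of an intergenic peak 34.2 kb upstream of Ccr7, the receptor that guides dendritic cells to lymph nodes. All are on the plus strand of mm10, and capitals mark matches to the NF-kB, AP-1, PU.1 or C/EBP consensus on either strand. In the Cp peak, 2.93 kb upstream of the gene for the copper-carrying ferroxidase ceruloplasmin, a C/EBP match runs into a PU.1 match. An NF-kB match stood in 4 of the 6 peaks with the largest change, and in 3 of them it met the stricter form of the consensus. Of all kept KLA peaks 7.54% held a match and 2.10% a strict one, and of all merged peaks 4.89% and 0.80%. Strict matches stood in 1.65% of the peaks of the KLA set alone and 0.83% of those of the RGFP966 + KLA set alone. The 6 were ranked on values that also chose the kept KLA peaks, so the count is a description.
Ppfibp2, chr7:107609732-107609931: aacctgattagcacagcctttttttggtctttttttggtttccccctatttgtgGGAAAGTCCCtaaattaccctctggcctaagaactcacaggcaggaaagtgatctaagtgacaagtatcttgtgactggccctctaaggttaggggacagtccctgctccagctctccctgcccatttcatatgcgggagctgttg
Cp, chr3:19954023-19954222: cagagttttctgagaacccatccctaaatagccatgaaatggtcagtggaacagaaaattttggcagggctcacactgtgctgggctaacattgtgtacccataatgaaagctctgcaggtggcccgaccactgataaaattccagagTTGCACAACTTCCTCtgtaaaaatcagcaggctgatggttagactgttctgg
2210010C04Rik, chr6:41113183-41113382: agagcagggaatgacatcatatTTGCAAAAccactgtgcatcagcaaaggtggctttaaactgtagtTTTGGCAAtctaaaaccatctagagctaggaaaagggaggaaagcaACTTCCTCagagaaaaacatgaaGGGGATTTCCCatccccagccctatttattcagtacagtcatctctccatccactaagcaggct
Gm5122, chr9:61054595-61054794: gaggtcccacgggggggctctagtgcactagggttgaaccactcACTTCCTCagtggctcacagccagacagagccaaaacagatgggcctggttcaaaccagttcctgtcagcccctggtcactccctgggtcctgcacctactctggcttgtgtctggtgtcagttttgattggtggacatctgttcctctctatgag
Trp53i11, chr2:93214298-93214497: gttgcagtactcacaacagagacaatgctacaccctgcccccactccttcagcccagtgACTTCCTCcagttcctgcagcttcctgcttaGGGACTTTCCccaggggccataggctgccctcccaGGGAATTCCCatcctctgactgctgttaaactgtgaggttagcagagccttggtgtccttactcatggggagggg
Ccr7, chr11:99189204-99189403: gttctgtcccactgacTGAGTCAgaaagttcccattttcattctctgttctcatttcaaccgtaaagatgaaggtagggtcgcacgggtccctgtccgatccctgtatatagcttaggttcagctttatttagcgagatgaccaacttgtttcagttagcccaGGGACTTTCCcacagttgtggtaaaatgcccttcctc

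For each motif, the 2 kept KLA peaks that lay over 2 kb from a TSS, held a match and had the most tags over the 4 KLA libraries are shown as 100 bases around the match. The first pair below was picked for NF-kB, the next for AP-1, then IRF, PU.1 and, last, C/EBP, for which the Nucb2 peak was picked as well. The consensus for AP-1 was TGACTCA, that for PU.1 GAGGAAGT and that for C/EBP TTGCNNAA, and NF-kB and IRF were searched with 10-letter consensus strings. The Nucb2 window holds an AP-1 and a C/EBP match next to each other, and the Kif16b window holds an IRF and an AP-1 match. A match is a string of letters and not a measured binding site.
Hivep3, chr4:119966858-119966957: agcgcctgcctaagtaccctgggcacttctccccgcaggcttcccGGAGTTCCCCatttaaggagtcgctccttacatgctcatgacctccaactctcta
Itga9, chr9:118669838-118669937: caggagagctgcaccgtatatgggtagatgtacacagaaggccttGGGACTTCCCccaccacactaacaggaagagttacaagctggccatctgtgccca
Nucb2, chr7:116494769-116494868: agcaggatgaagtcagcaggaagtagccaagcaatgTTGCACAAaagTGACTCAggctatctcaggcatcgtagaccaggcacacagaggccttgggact
Ptpre, chr7:135644714-135644813: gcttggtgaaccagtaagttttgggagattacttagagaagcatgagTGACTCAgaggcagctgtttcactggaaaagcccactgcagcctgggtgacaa
Marcks, chr10:37338581-37338680: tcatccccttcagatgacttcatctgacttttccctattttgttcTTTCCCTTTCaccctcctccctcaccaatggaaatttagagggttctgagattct
Kif16b, chr2:142758118-142758217: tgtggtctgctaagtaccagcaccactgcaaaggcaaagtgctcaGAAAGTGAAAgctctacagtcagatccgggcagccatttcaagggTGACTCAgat
Hhat, chr1:192699269-192699368: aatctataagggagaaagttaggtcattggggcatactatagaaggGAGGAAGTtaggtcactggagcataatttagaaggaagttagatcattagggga
Igfbp7, chr5:77372977-77373076: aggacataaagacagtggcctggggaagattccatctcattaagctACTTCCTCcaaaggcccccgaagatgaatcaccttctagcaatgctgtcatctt
Mki67, chr7:135773874-135773973: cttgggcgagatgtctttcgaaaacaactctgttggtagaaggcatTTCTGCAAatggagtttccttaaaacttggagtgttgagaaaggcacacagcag

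As the rule favors, kept KLA peaks were lower at Veh than in both KLA conditions, but few were empty at Veh. Their median level at Veh was 69.8 and 66.1 CPM (tags per 1000000 tags in peaks of the library). It was 101.6 and 102.8 CPM after KLA, and 93.8 and 97.8 CPM after RGFP966 + KLA. These medians lay close together within a condition, and those of the Veh pair lay below the other 4. Peak by peak, the log2 levels of the paired libraries had a Pearson correlation of 0.49 at Veh, 0.46 after KLA and 0.57 after RGFP966 + KLA. Over all merged peaks these correlations were 0.78, 0.76 and 0.79. The squared difference of paired libraries, scaled to its counting error, averaged 1.33 at Veh, 0.73 after KLA and 0.86 after RGFP966 + KLA. Over all merged peaks it averaged 1.07, 1.08 and 0.95. The kept KLA peaks were chosen with these same libraries. Kept KLA peaks took 9.39 and 9.10% of the tags in peaks at Veh, 14.2 and 14.4% after KLA, and 13.5% in each RGFP966 + KLA library. The peaks that belonged to all 3 sets had medians of 155.1 and 148.6 CPM at Veh and 144.4 and 145.6 after KLA. In an assay on bulk cells, fewer cells with an open region and less opening per cell cannot be told apart.

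**Figure D1:**
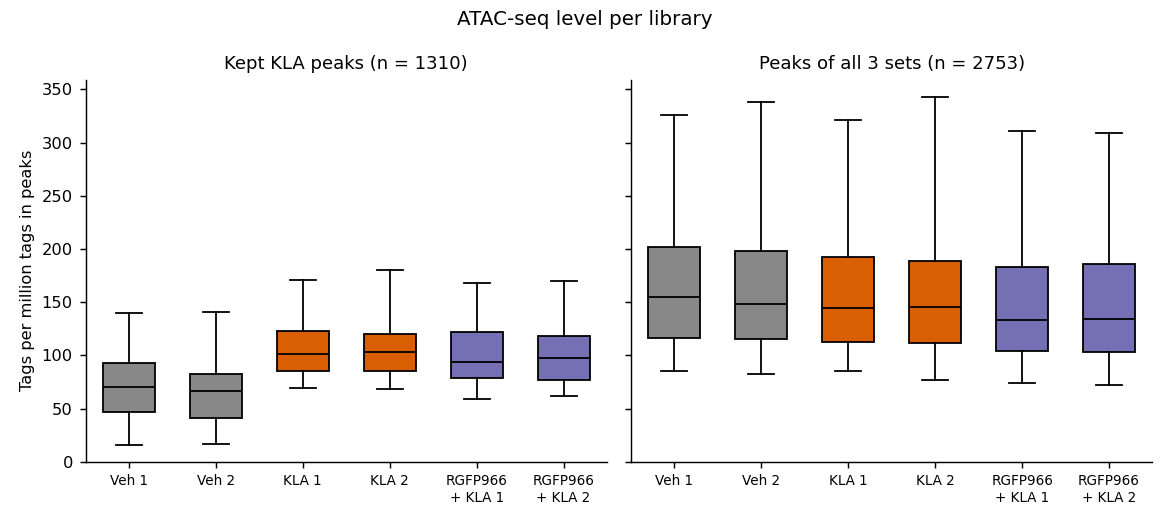
CPM, the tags scaled to the tags in peaks (y axis) in each WT library (x axis), for the 1310 kept KLA peaks (left) and the 2753 peaks of all 3 sets (right). Boxes span the quartiles with the median as a line, and whiskers the 5th to 95th percentile over peaks. On the left the Veh medians of 69.8 and 66.1 lie under those of the other 4 libraries, and on the right the 6 medians lie between 133.3 and 155.1.

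In raw tags, the median kept KLA peak had 9 and 8 tags at Veh, 19 and 12 after KLA, and 19 in each RGFP966 + KLA library, so each single peak was measured with few tags. Only 3 of the 1310 had no tag in either Veh library, and 58 had at most 3 in each. Both Veh libraries lay below all 4 KLA and RGFP966 + KLA libraries on the CPM scale at 629 kept KLA peaks (48.0%), where 17.1% of all merged peaks did so. At 129 of the 1310, the Veh mean reached or passed the KLA mean. The fitted log2 change from Veh to KLA had a median of 0.61 (quartiles 0.26 and 1.05), beside 0.02 over all peaks, and it was over 2-fold at 359 kept KLA peaks.

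With edgeR's quasi-likelihood test across all 9698 peaks, 167 kept KLA peaks were called gained after KLA against Veh and 0 lost, at a Benjamini-Hochberg adjusted p under 0.05 and over 2-fold. Among all peaks, 3.3% were gained and 1.73% lost. Between Veh and RGFP966 + KLA, 210 were gained and 0 lost, with 6.89% gained and 2.99% lost among all peaks, and 129 kept KLA peaks were gained in both comparisons, which share the Veh libraries. These comparisons are the ones that chose the peaks. In both comparisons, fewer were gained without any 1 library of the compared conditions. Such a fit leaves 1 library in a condition, so the fall does not tell how far the counts lean on that library. The median log2 change for KLA was 0.71 and 0.65 without the first or second Veh library, and 0.62 and 0.61 without either KLA library, beside 0.61. For RGFP966 + KLA it was 0.64 and 0.59 without either Veh library, and 0.54 and 0.53 without either RGFP966 + KLA library, beside 0.54. DESeq2 called 0 in every comparison, with 182 kept KLA peaks at an unadjusted p under 0.05 for KLA and 165 for RGFP966 + KLA, each against Veh, where edgeR had 444 and 439.

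Between the 2 KLA conditions, the levels of kept KLA peaks lay close together, and the rule itself asks for a peak in both. The median log2 change from KLA to RGFP966 + KLA was -0.09 (quartiles -0.31 and 0.14) beside 0.03 over all peaks, and with all tags as library size it was 0.09 beside 0.21, so its sign depends on the scaling. With tags in peaks as library size, the median of the peaks of all 3 sets was also -0.09, that of the KLA set alone -0.70 and that of the RGFP966 + KLA set alone 0.46. The fitted change was under 1.5-fold in either direction at 1189 kept KLA peaks (90.8%), against 73.9% of all peaks, and over 2-fold at 7. edgeR called 1 gained and 0 lost, where 0.237% of all peaks were gained and 0.103% lost, with 69 kept KLA peaks at an unadjusted p under 0.05. The rule keeps only peaks found in both conditions, so regions that closed fully under RGFP966 could not be among them.

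**Figure D2:**
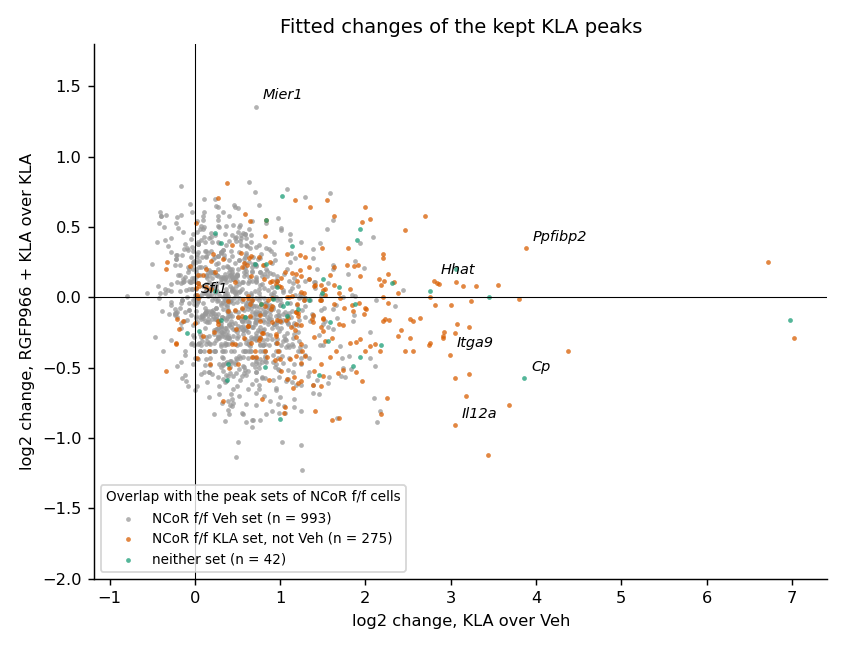
Fitted log2 change from Veh to KLA (x axis) and from KLA to RGFP966 + KLA (y axis) of the 1310 kept KLA peaks, 1 point per peak, colored by the NCoR f/f peak sets they overlap. Most points lie right of 0 on the x axis and within 0.5 of 0 on the y axis; the 3 points near 7 on the x axis had 0 tags in both Veh libraries, so that their place depends on the prior count of the fit.

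The 3 peaks without a Veh tag fell near Nfkb1, Maf and Serpina3i, and are named after their values were seen. The Nfkb1 peak (chr3:135640230-135640507) lay in intron 6 of 24 of the gene for the NF-kB precursor p105 and held an NF-kB match. It had 0 and 0 tags at Veh, 18 and 13 after KLA and 16 and 17 after RGFP966 + KLA. With the Veh pair set to a floor of 3 tags, the KLA over Veh ratio was 8.51. This ratio and those against the same floor below leave out the counting error of the KLA tags. The peak 309 kb from Maf, the gene of a bZIP factor of macrophages, had 0 and 0, 13 and 12, and 18 and 21 tags. Its KLA over Veh ratio was 6.86 against the same floor. The peak upstream of Serpina3i, a serine protease inhibitor of the acute-phase family, had 0 and 0, 19 and 11, and 22 and 13 tags. Its ratio against that floor was 8.23. At all 3, both Veh libraries lay below the other 4, which the choice by 0 Veh tags fixed in advance.

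Among the well-covered kept KLA peaks, the largest contrasts were at Ppfibp2, Cp and 4 further loci. In intron 1 of Ppfibp2 (chr7:107609650-107610012), which encodes a liprin-beta protein, the libraries held 1 and 1 tags at Veh, 24 and 15 after KLA, and 38 and 27 after RGFP966 + KLA. The ratio of summed CPM, KLA over Veh, was 16.1 (95% exact interval 4.16 to 137, counting error only, as for all ratios here). The Cp peak (chr3:19953962-19954282) held 1 and 2 tags at Veh, 33 and 23 after KLA, and 21 and 28 after RGFP966 + KLA. Its ratio was 15.4 (5.0 to 76.8) for KLA over Veh and 0.67 (0.447 to 1.00) for RGFP966 + KLA over KLA. The intergenic peak 77.8 kb upstream of 2210010C04Rik had 1 and 1, 23 and 14, and 32 and 16 tags. The peaks assigned to 4930543E12Rik, Gm5122 and Trp53i11 (intron 5 of 9) had 3 to 4 Veh tags in all, and ratios of 9.67, 9.67 and 9.33. At all 6, both Veh libraries lay below the other 4, as a choice by the largest change from Veh to KLA favors.

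The kept KLA peaks with the most tags looked different. Of the 8 with the highest sums over the 4 KLA libraries, the Veh pair lay below all 4 at 2, Hhat and Mettl2. In Hhat intron 7 of 11 (chr1:192699222-192699586), whose product attaches palmitate to Hedgehog proteins, 4 and 4 tags at Veh stood against 40 and 29 after KLA and 48 and 50 after RGFP966 + KLA, a KLA over Veh ratio of 7.10 (3.41 to 17.1). In contrast, the Sfi1 peak (chr11:3190189-3190556), in an LTR element of intron 1 of a centrosome gene, had 35 and 50 tags at Veh, 45 and 55 after KLA, and 72 and 60 after RGFP966 + KLA, with a ratio of 0.968 (0.718 to 1.31). Pwwp2a and Gm2093, both at promoters, had ratios of 1.07 and 1.28. Sfi1 and Pwwp2a are absent from the Veh set although their Veh and KLA libraries overlapped in CPM, and at Gm2093 the Veh libraries overlapped those of RGFP966 + KLA.

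The gene with the most kept KLA peaks was Pisd-ps3, a pseudogene on an unplaced contig (Un_JH584304), with 12 of the 97 merged peaks assigned to it. Their tags ran from 7 to 48 at Veh and from 10 to 48 after KLA, the ratios of KLA over Veh from 0.925 to 1.68, and all 12 overlapped an NCoR f/f Veh peak. Reads on this contig may come from near-identical copies elsewhere, so the assignment is uncertain. In contrast, of the 4 kept KLA peaks of Ext1, which encodes a heparan sulfate polymerase, 3 lay in intron 1 and had ratios of 5.35 (2.25 to 15.5), 3.16 (1.25 to 9.47) and 2.33 (1.18 to 4.95), while the one at the promoter had 1.03 (0.507 to 2.12). In all, 1202 genes were assigned to kept KLA peaks, 1124 of them to a single one.

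Kept KLA peaks near inflammatory genes were sought with 13 gene lists of 364 genes, of which 198 had a merged peak. They held 56 kept KLA peaks at 49 genes. These are 15.9% of the 353 merged peaks at list genes, where kept KLA peaks are 13.5% of all merged peaks. The count of kept KLA peaks in each list below is to be read beside its merged peaks and this 13.5%. All 56 had a fitted change above 0 from Veh to KLA, as did 90.1% of all kept KLA peaks and 51.3% of all merged peaks. The median change of the 56 was 0.98, beside 0.61 over all kept KLA peaks. Both Veh libraries lay below the other 4 at 39 of them (69.6%), beside 48.0% of all kept KLA peaks and 17.1% of all merged peaks. edgeR called 16 of the 56 gained from Veh to KLA, where 12.7% of all kept KLA peaks and 3.3% of all merged peaks were, and the counts of gained peaks in the lists below are to be read beside these shares. From KLA to RGFP966 + KLA their median change was -0.22.

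NF-kB subunits and inhibitors had 9 kept KLA peaks among 28 merged peaks, at 7 of 17 genes (Ikbkb, Nfkb1, Nfkbiz, Rel, Tnfaip3, Tnip1 and Tnip3). Their median log2 change from Veh to KLA was 0.88, with 3 gained and 0 lost. The promoter peak of Rel, which encodes the NF-kB subunit c-Rel, held an NF-kB and a PU.1 match and had 11 and 10 tags at Veh, 29 and 16 after KLA, and 30 and 24 after RGFP966 + KLA. Its ratio was 1.76 (1.03 to 3.12), with the Veh pair below the other 4. The peak 68.5 kb from Tnfaip3, the gene of the NF-kB inhibitor A20, had 7 and 12, 28 and 13, and 19 and 22 tags, and in CPM the Veh and RGFP966 + KLA libraries overlapped. Intronic peaks of Ikbkb, an IkB kinase, and Tnip1, a partner of A20, had ratios of 1.69 (0.924 to 3.23) and 1.85 (1.00 to 3.57).

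Inflammatory cytokines had 6 kept KLA peaks among 20 merged peaks, at Ebi3, Il10, Il12a, Il12b, Il15 and Il33. Their median log2 change was 1.73, with 3 gained and 0 lost. The 25 chemokine genes had 10 merged peaks and 0 kept KLA peaks. The intergenic peak 57.9 kb upstream of Il12a (chr3:68632545-68632996), the gene of the p35 subunit of IL-12, had 3 and 2 tags at Veh, 39 and 13 after KLA, and 14 and 22 after RGFP966 + KLA. Its KLA over Veh ratio was 8.56 (3.44 to 27.5) and its RGFP966 + KLA over KLA ratio 0.53 (0.337 to 0.826), the lowest fitted value of all 376 well-covered kept KLA peaks, while in CPM the RGFP966 + KLA and KLA libraries overlapped. At the promoter of Il15, a cytokine for NK cells and memory T cells, 2 and 3 tags at Veh stood against 29 and 16 after KLA and 25 and 38 after RGFP966 + KLA, with ratios of 7.41 (2.95 to 23.9) and 1.07 (0.72 to 1.61). Ebi3 and Il33 had KLA over Veh ratios of 1.43 (0.79 to 2.66) and 1.28 (0.704 to 2.36), and overlapping groups. No kept KLA peak was assigned to Ptgs2.

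Effector enzymes and secreted proteins had 5 kept KLA peaks among 19 merged peaks, at Arg1, Cp, Gch1, Mmp14 and Ptges. Their median log2 change was 2.18 from Veh to KLA, with 3 gained and 0 lost, and -0.58 from KLA to RGFP966 + KLA. The peak in intron 1 of Gch1, the first enzyme of tetrahydrobiopterin synthesis, had 13 and 10 tags at Veh, 29 and 29 after KLA, and 21 and 22 after RGFP966 + KLA. The peak at the 3' end of Mmp14, a membrane-bound collagenase, had 3 and 7, 34 and 22, and 21 and 20 tags. At both, the RGFP966 + KLA pair lay between the Veh pair and the KLA pair, with RGFP966 + KLA over KLA ratios of 0.568 (0.373 to 0.857) for Gch1 and 0.561 (0.365 to 0.854) for Mmp14. Neither passed the adjusted test for this comparison.

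Feedback genes (dual-specificity phosphatases, SOCS proteins and mRNA decay factors) had 8 kept KLA peaks among 51 merged peaks, at 7 of 34 genes. Of the 8, 6 were at promoters, and their median log2 change was 0.98, with 3 gained and 0 lost. The promoter peak of Socs3 and the peak 0.25 kb from the Socs1 TSS sit at genes that restrain JAK-STAT signaling. Socs3 had 3 and 2 tags at Veh, 15 and 22 after KLA, and 23 and 20 after RGFP966 + KLA, a KLA over Veh ratio of 6.09 (2.39 to 19.9). Socs1 had 7 and 7, 33 and 28, and 28 and 28 tags, with ratios of 3.59 (1.98 to 6.94) for KLA over Veh and 0.703 (0.48 to 1.03) for RGFP966 + KLA over KLA. The intergenic peak near Zc3h12a, the gene of the ribonuclease Regnase-1, had 16 and 6, 26 and 19, and 32 and 24 tags, a ratio of 1.68 (0.99 to 2.94), and its groups overlapped.

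AP-1 and related bZIP factors had 10 kept KLA peaks among 45 merged peaks, at 8 of 29 genes. Their median was 0.68, with 2 gained and 0 lost. An intergenic peak 58.8 kb from Nfe2l2, the gene of the antioxidant factor NRF2, held an NF-kB match and had a ratio of 1.65 (0.966 to 2.88). Interferon-stimulated and antigen presentation genes had 4 kept KLA peaks among 17 merged peaks, at Cmpk2, Gbp5, Mx1 and Parp14, 1 of them gained. The peak in intron 12 of Parp14, an ADP-ribosyltransferase, had 1 and 3 tags at Veh, 20 and 9 after KLA and 16 and 15 after RGFP966 + KLA. The Mx1 promoter, of an antiviral GTPase, had 10 and 0 tags in the Veh libraries, which disagree, and 16 and 15 after KLA. The TLR4 pathway list had 3 (Irak3, Traf3 and Traf5) among 31 merged peaks. Adhesion and costimulatory receptors had 5 among 37, and macrophage lineage factors 3 (at Klf4 and Nr4a2) among 48. LXR and SREBP lipid genes had 1 (Scd2) among 24, and the NCoR and HDAC3 complex 0 among 9. Of these, 1 was gained among the adhesion and costimulatory receptors and 0 in the other 4 lists.

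**Figure D3:**
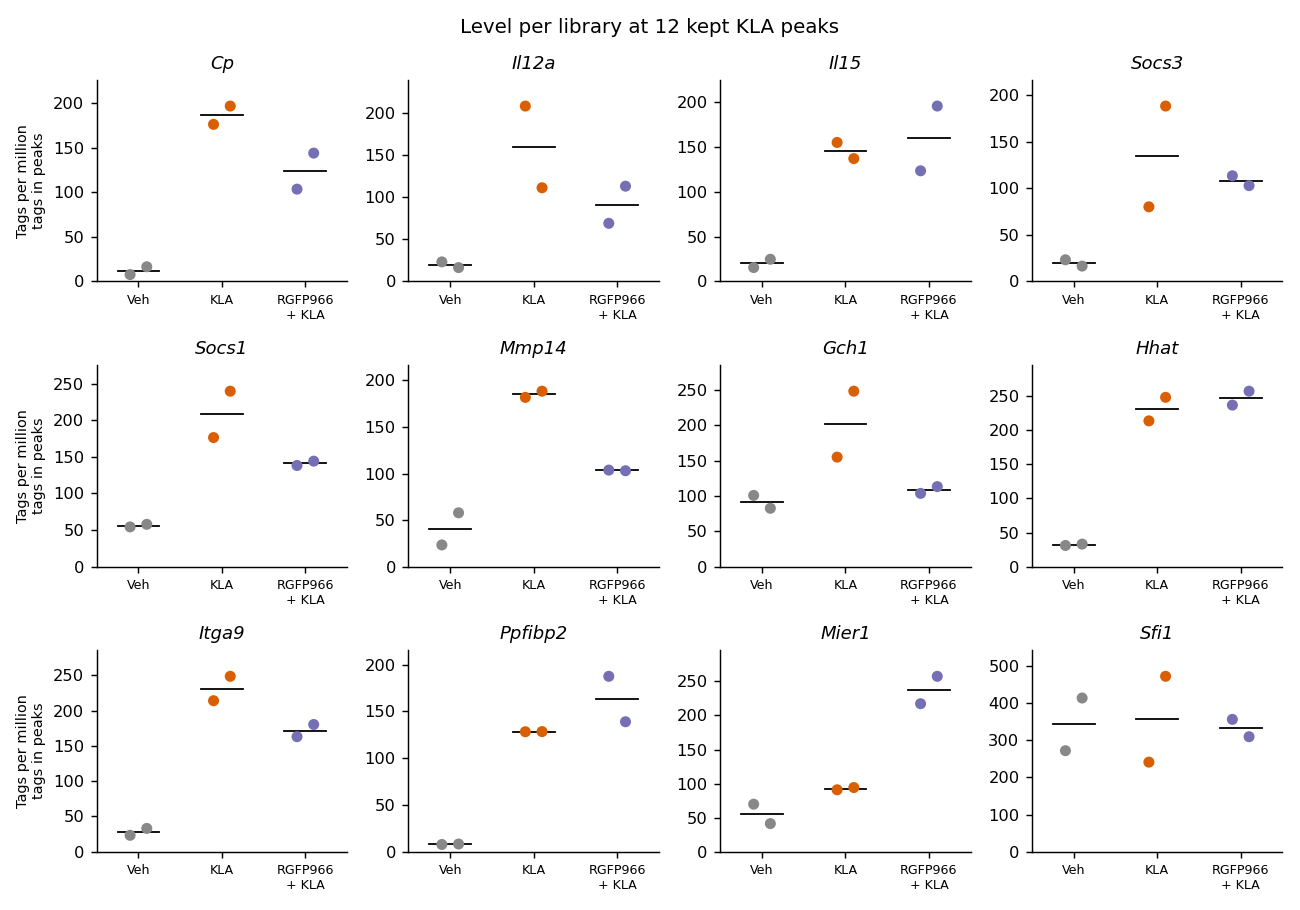
CPM, the tags scaled to the tags in peaks (y axis) at 12 kept KLA peaks, named by the assigned gene, at Veh, KLA and RGFP966 + KLA (x axis). Points are the 2 libraries of a condition and bars their mean; the Veh points lie under the other 4 at every locus shown but Sfi1.

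Single departures between the KLA conditions were few. The one kept KLA peak called gained with RGFP966 was at the promoter of Mier1 (chr4:103114598-103114913), which encodes a corepressor that binds class I histone deacetylases. It had 9 and 5 tags at Veh, 17 and 11 after KLA, and 44 and 50 after RGFP966 + KLA, with a ratio of 2.57 (1.67 to 4.07) to KLA and no overlap of the groups. Nrp2 and Pacrgl followed with ratios of 1.76 (1.10 to 2.87) and 1.74 (1.08 to 2.87). After Il12a, the lowest fitted changes were at an intergenic peak 33.3 kb upstream of Prrc2c, with 6 and 4 tags at Veh, 32 and 22 after KLA, and 18 and 20 after RGFP966 + KLA, and at the Kri1 promoter, with ratios of 0.539 (0.346 to 0.831) and 0.542 (0.339 to 0.859). Since these were picked as extremes among 376 peaks, their intervals are too narrow for a reading one by one.

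The NCoR f/f libraries did not choose the kept KLA peaks and gave an independent look at Veh. By an overlap of 1 bp, 993 kept KLA peaks (75.8%, Wilson 95% interval 73.4 to 78.0, counting error only) met a region of the NCoR f/f Veh set, although none belonged to the WT Veh set. The share over all merged peaks was 78.3% (77.4 to 79.1), close to that of the kept KLA peaks. It was 96.7% for the peaks of all 3 WT sets, 63.5% for peaks of the WT KLA set alone and 57.6% for those of the RGFP966 + KLA set alone. The NCoR f/f Veh set was larger, with 15473 peaks, and its libraries deeper, and the part of depth, genotype or batch in this overlap was not tested. In the NCoR f/f table, 1294 kept KLA peaks (98.8%) overlapped some peak, and there they had a median of 43.0 and 45.1 CPM at Veh. Peaks of all 3 WT sets had 77.9 and 80.4, peaks of the KLA set alone 37.6 and 39.2, and those of the RGFP966 + KLA set alone 34.9 and 35.3, and all merged peaks 51.0 and 53.0. These medians cover only peaks with an overlap, which 99.8% of the peaks of all 3 sets had. The share was 93.9% for the KLA set alone and 87.0% for the RGFP966 + KLA set alone. Of several overlapping peaks, the one with the most NCoR f/f Veh tags was counted. On these medians, kept KLA peaks lay between the peaks of all 3 sets and those of the KLA or RGFP966 + KLA set alone. The peaks of the WT Veh set alone had 45.7 and 46.1 CPM, close to the kept KLA peaks, although the latter are absent from that set. These are levels at Veh in libraries that had no part in the choice of the kept KLA peaks.

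The same table records peak sets after KLA and in NKO cells, whose libraries were not analysed here beyond their sets. Kept KLA peaks overlapped the NCoR f/f KLA set at 94.0% (92.6 to 95.2), the NKO Veh set at 50.3% (47.6 to 53.0) and the NKO KLA set at 90.8% (89.1 to 92.2). Over all merged peaks these shares were 87.0%, 56.5% and 80.6%. In both genotypes the share was higher for the KLA set than for the Veh set, as it was over all merged peaks, and the KLA sets were also larger, with 18667 and 14357 peaks against 15473 and 7983. At peaks of the WT RGFP966 + KLA set alone, the shares in the KLA sets were 74.6% for NCoR f/f and 64.5% for NKO, and at those of the KLA set alone 86.2% and 71.1%.

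**Figure D4:**
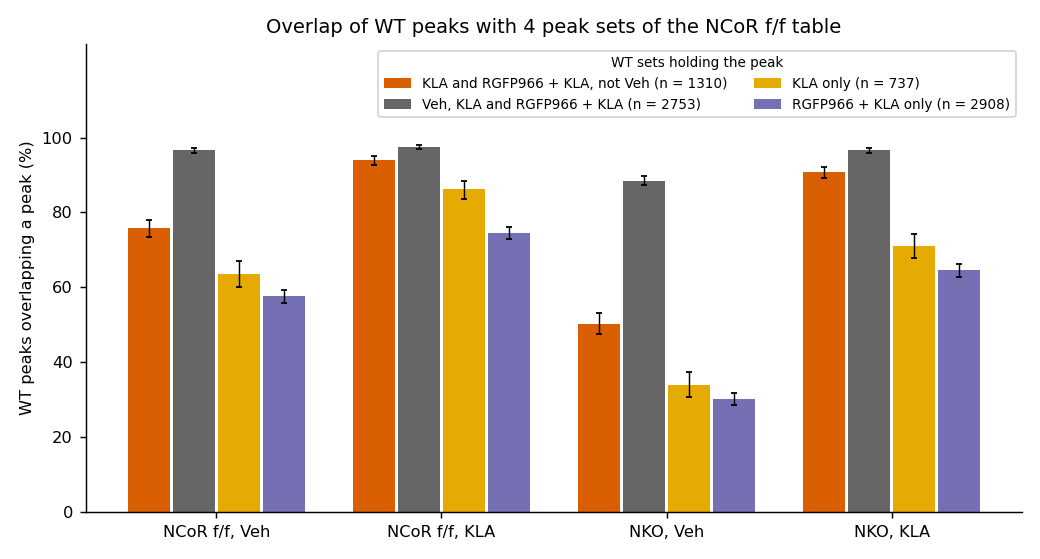
Share of WT peaks (y axis, percent) that overlap by 1 bp a peak of each of 4 sets recorded in the NCoR f/f table (x axis), for kept KLA peaks and 3 other classes of WT peaks; error bars are Wilson 95% intervals. Kept KLA peaks overlap the Veh sets at 75.8% and 50.3% and the KLA sets at 94.0% and 90.8%.

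These sets split the kept KLA peaks into 993 with an NCoR f/f Veh peak, 275 with an NCoR f/f KLA peak but no Veh peak, and 42 with neither. The 275 were the regions absent at Veh and present after KLA in both the WT and the NCoR f/f sets. In the WT libraries, their median log2 change from Veh to KLA was 1.23, against 0.49 for the 993, and both Veh libraries lay below the other 4 at 76.4% of the 275 and 39.0% of the 993. From KLA to RGFP966 + KLA the medians were -0.10 and -0.09. In the NCoR f/f Veh libraries, which had a part in this split, the 275 had medians of 21.5 and 21.6 CPM and the 993 had 48.3 and 51.0. Of the 275, 229 (83.3%) overlapped the NKO KLA set and 43 (15.6%) the NKO Veh set. All but 1 of the 6 peaks with the largest change were in this subset, while 7 of the 8 with the most tags overlapped an NCoR f/f Veh peak. Of the 56 kept KLA peaks at list genes, 23 (41.1%) were in it, Il12a, Il15, Socs3, Nfkb1, Mmp14 and Parp14 among them.

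Of the 42 in neither set, 16 overlapped no peak of the NCoR f/f table at all. The well-covered ones were at Cp, Ccr7 and Trim52. The Ccr7 peak (chr11:99189141-99189465), with an NF-kB and an AP-1 match in the sequence above, had 10 and 6 tags at Veh, 24 and 16 after KLA, and 27 and 23 after RGFP966 + KLA, a KLA over Veh ratio of 2.06 (1.13 to 3.94). The Trim52 peak had 11 and 9, 32 and 17, and 17 and 18 tags, ratios of 2.02 (1.18 to 3.58) and, for RGFP966 + KLA over KLA, 0.547 (0.344 to 0.861), and its Veh and RGFP966 + KLA libraries overlapped.

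Kept KLA peaks lay away from promoters more often than peaks of all 3 sets did. Within 2 kb of a TSS were 575 of the 1300 with a known distance (44.2%, 41.6 to 46.9), against 70.3% (68.6 to 72.0) of the peaks of all 3 sets, 41.8% of the KLA set alone and 36.3% of the RGFP966 + KLA set alone. Over all merged peaks the share was 51.0%. The median distance was 5120 bp. By the table's annotation, 32.2% were in introns, 25.1% intergenic and 38.1% at a promoter-TSS, and 10.2% fell in a named repeat. Among the 275, 19.3% (15.1 to 24.4) were within 2 kb of a TSS and 51.3% in introns, while 52.0% (48.9 to 55.1) of the 993 were within 2 kb. The 725 distal ones had a median log2 change from Veh to KLA of 0.81 and the 575 at promoters 0.42. The GC content of the central 200 bp had a median of 53.5%, with 49.0% at distal and 65.0% at promoter peaks.

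Sequence was read for the 1287 kept KLA peaks on chromosomes 1 to 19, X and Y, and motif matches were counted in their central 200 bp on both strands. An NF-kB match stood in 7.54% (6.22 to 9.11), against 4.89% (4.48 to 5.34) of all peaks and 3.46% of the peaks of all 3 sets. An AP-1 match stood in 19.5% (17.4 to 21.8), against 15.6% and 9.0%. C/EBP matches stood in 12.7% against 10.9% of all peaks, IRF matches in 3.42% against 2.48%, PU.1 matches in 7.61% against 7.49%, STAT matches (TTCNNNGAA) in 6.60% against 5.32%, and CRE matches (TGACGTCA) in 1.48% against 1.91%. The peaks of the KLA set alone and of the RGFP966 + KLA set alone held an NF-kB match in 6.20% (4.66 to 8.19) and 6.19% (5.37 to 7.13), and these intervals overlap that of the kept KLA peaks. For AP-1 these shares were 17.4% and 22.7%, and for C/EBP 14.0% and 12.9%, so that AP-1 and C/EBP shares were as high or higher in 1 or both of these classes. No match to the NF-kB, AP-1, IRF, PU.1 or C/EBP consensus was found in 58.7% of the kept KLA peaks and 65.5% of all peaks.

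These shares differ by position. An AP-1 match stood in 5.57% of the kept KLA peaks at promoters, a PU.1 match in 2.26% and a C/EBP match in 8.0%. Among distal peaks, an AP-1 match stood in 30.8% (27.5 to 34.2) of the kept KLA peaks and 28.3% (27.0 to 29.6) of all, a PU.1 match in 11.9% and 12.1%, and a C/EBP match in 16.4% and 16.3%. For NF-kB the distal shares were 9.97% (7.98 to 12.4) and 6.10% (5.45 to 6.83), where the kept KLA peaks are a part of all distal peaks. At promoters, 4.52% (3.10 to 6.54) of the kept KLA peaks and 3.75% of all held an NF-kB match. No test was made of these differences.

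**Figure D5:**
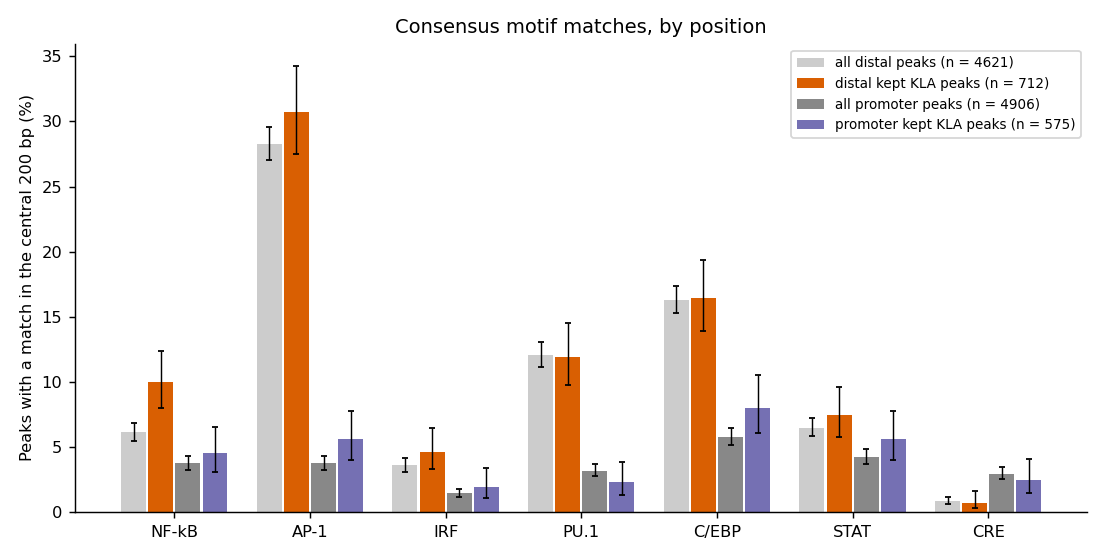
Share of peaks (y axis, percent) with a consensus match in the central 200 bp for 7 motifs (x axis), for kept KLA peaks and all merged peaks, distal (over 2 kb from a TSS) or at promoters; error bars are Wilson 95% intervals. AP-1, PU.1 and C/EBP shares of distal kept KLA peaks are near those of all distal peaks, and the NF-kB share is 9.97% against 6.10%.

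The NF-kB share also differed within the kept KLA peaks. It was 15.7% (11.9 to 20.5) in the 275 absent from the NCoR f/f Veh set and present in its KLA set, and 4.93% (3.74 to 6.48) in the 993 with an NCoR f/f Veh peak, so the intervals do not overlap. AP-1 shares were 24.1% (19.4 to 29.5) and 17.8% (15.5 to 20.3), C/EBP shares 17.9% (13.8 to 22.9) and 10.7% (8.90 to 12.8), and PU.1 shares 8.39% (5.66 to 12.3) and 7.19% (5.73 to 8.99). Both an NF-kB and an AP-1 match stood in 4.38% of the 275 and 0.925% of the 993. The 275 are also more distal, as given above. Kept KLA peaks with an NF-kB match had a median log2 change from Veh to KLA of 1.03, and those without one 0.60. For AP-1 these medians were 0.86 and 0.57, for C/EBP 0.90 and 0.60, for IRF 0.85 and 0.62, and for PU.1 0.76 and 0.61. Among distal kept KLA peaks alone they were 1.19 and 0.80 for NF-kB, and 0.92 and 0.80 for AP-1. For C/EBP the distal medians were 0.96 and 0.80, for IRF 0.93 and 0.82, and for PU.1 0.76 and 0.83, so that the PU.1 order turned. Over all merged peaks, the NF-kB medians were 0.41 and 0.01. Sequence was not part of the rule that chose the peaks, but the fold changes rest on the same libraries as the peak sets of that rule.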

How the data were processed

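By the study's methods and the submitters' processing notes, the authors mapped ATAC-seq reads to mm10 with Bowtie2, called HOMER peaks, kept IDR peaks of each condition, merged them and counted tags in every merged peak. The deposited values are raw counts of tags per peak and library, with at most 3 tags per base position per the file headers. The deposited peak score, the distance to the TSS (bp), the assigned gene and the peak sets were taken from the same tables. The peak score is the authors' HOMER score, and all per-sample columns were used. The WT and NCoR f/f tables were counted on different peaks and were analysed separately.

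Kept KLA peaks were taken from the peak sets. They, the gene lists and the rule for named peaks were chosen with earlier results of these data known. Counts of the 6 WT libraries were fitted in 1 model with edgeR 4.0.16 (R 4.3.3, glmQLFit and glmQLFTest) over peaks with at least 4 tags in 1 sample, with the tags in peaks as library size and no covariate. The calls use a Benjamini-Hochberg adjusted p under 0.05 and a fold over 2. The script was tested on simulated data. DESeq2 1.42.0 was an alternative.

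Ratios are of summed tags over the tags in peaks, with exact 95% binomial intervals; a group with no tag is set to 3 tags. Peaks named by gene are all at Ptgs2, Cp or Il12a, up to 4 per list by tags, the 8 with most tags, the 6 largest changes from Veh to KLA and the 3 highest and lowest from KLA to RGFP966 + KLA (mean of at least 20 tags), 2 distal ones per motif, those of the 5 genes with most of them, and, by NCoR f/f overlap, 4 with most NCoR f/f tags and up to 4 outside that table. Of the NCoR f/f table, the sets after KLA and of NKO cells were added after the data were seen. Overlaps were made with bedtools 2.31.1, and sequence was read from the GRCm38 (mm10) RefSeq genome. The other steps used Python 3.11.15 with pandas 2.3.3 and scipy 1.17.1. Alternatives were other scalings, filters, fold thresholds, libraries left out, the replicate number as a block, and other overlaps, distances, motif windows and consensus strings. Some named peaks, 1 sequence and 2 lists are not reported here.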

Additional observations from a re-analysis of the deposited data

How the results depend on the processing

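The replicate numbers only name the libraries: differences between libraries 1 and 2 correlated at 0.018 to 0.023 between conditions. With the number as a replicate block, 181 kept KLA peaks were called after KLA and 228 after RGFP966 + KLA, each against Veh, and 1 between the KLA conditions, beside 167, 210 and 1. Leaving out 1 library gave 59 to 144, 88 to 215 and 0 to 1; a condition left with 1 library is assumed to vary like the others. With all tags as library size 87, 152 and 0 were called, with DESeq2 0, 0 and 0, where 182, 165 and 1 kept KLA peaks had an unadjusted p under 0.05, and with loess offsets 2 between the KLA conditions (1 gained, 1 lost). TMM factors, no filter, a filter of 16 tags, a fold of 1.5 and only the libraries compared kept the counts within 1.5 times.

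The log2 ratio of summed tags was 0.63 from Veh to KLA, 0.55 from Veh to RGFP966 + KLA and -0.08 between the KLA conditions. With all tags as library size these were 0.50, 0.62 and 0.11, so the last turned its sign. Leaving out 1 library gave 0.61 to 0.65, 0.53 to 0.57 and -0.09 to -0.07.

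At an overlap of 50% of both peaks, 72.3% overlapped the NCoR f/f Veh set and 94.5% any peak of that table. The promoter share was 47.1% among peaks with at least 16 tags in each KLA and RGFP966 + KLA library. The median level in the NCoR f/f Veh libraries, 45.4 CPM averaged over both, was 43.0 to 45.1 in either alone. The NF-kB share was 4.12% in 100 bp, 9.25% over whole peaks, 9.97% in distal peaks and 2.10% with the strict consensus; the AP-1 share was 12.5%, 23.2% and 30.8% in the first 3. Tags per peak limit every single region: the median kept KLA peak had 8 to 19 tags in a library.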
